A study of Mus musculus with 16 samples.

Results

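The cytosolic small-subunit ribosomal protein genes are the genes whose protein products build the 40S subunit of the cytosolic ribosome. They were taken by gene symbol, as every Rps symbol with a number and at most an a, l or x after it, plus Rpsa and Fau, and 33 of the 24539 genes in each count table met that rule. Livers of male C57BL/6 mice were compared after 8 weeks on a high-fat diet plus Betaine (HB) or on a high-fat diet alone (HF), begun at 8 weeks of age, so all mice were 16 weeks old and all had received the high-fat diet. Each diet had 2 libraries of ribosome-bound mRNA (mRNA pelleted with ribosomes and their nascent chains through a sucrose cushion), 2 of total polyadenylated mRNA, and 2 immunoprecipitated for m6A (N6-methyladenosine). Each of the mRNA and ribosome-bound libraries came from material pooled over 2 independent experiments, per the labels, so p-values measure the spread between pools and not between mice. The samples are whole liver, in which fewer cells of a type and less RNA per cell cannot be told apart.

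The small subunit binds the mRNA, scans for the start codon and decodes it, and its proteins are made in equal numbers because each ribosome needs a single copy of nearly all of them. Their mRNAs belong to the 5′ terminal oligopyrimidine (TOP) class, which starts with a C followed by a run of C and T bases, and whose loading on ribosomes is known to follow mTOR signalling through proteins such as LARP1. In liver, TOP mRNAs are known to move on and off ribosomes with feeding, and such moves alter the ratio of ribosome-bound over total mRNA. As each level here is scaled to its own library, the ratio gives a gene's place relative to other genes and not the share of its molecules on ribosomes.

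Because the TOP tract is the feature that defines this class, the bases around the annotated starts were read from RefSeq promoter windows of GRCm38.p6, which existed for 24 of the 33 genes. A tract was called where the annotated first base is C and at least 4 further C or T bases follow on the transcribed strand. A gene with several windows was counted if any of them met the rule. It was present in 7 of 24 members (29.2%), against 3.01% of 27025 genes with a window, 8 of 41 large-subunit genes (19.5%) and 0 of 26 mitochondrial small-subunit genes. With the start allowed to lie within 10 bases either side, 16 of 24 members (66.7%) and 34.4% of all genes held such a run. These are matches of letters at annotated starts and not measured starts of transcription in these livers.

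The 7 members with a tract are shown first, as the 12 bases before and 18 bases from the annotated start, with the tract in capitals, and Rps27l and Rps3, which lack a tract at that place, follow for contrast. The Rps27l window shown does hold such a run within 10 bases of the start, and the Rps3 window does not. Another Rps27l window, at chr9:66946401-66946430, does not hold one either. Rps21 also has another window, at chr2:180257437-180257466, which lacks a tract. Whether a tract goes with the ratio of ribosome-bound over total mRNA was not tested. The windows lie at chr19:6057935-6057964 on the plus strand for Fau, chr4:86857350-86857379 on the minus strand for Rps6, chr17:27635227-27635256 on the minus strand for Rps10, chr17:33955648-33955677 on the minus strand for Rps18, chr7:118116130-118116159 on the minus strand for Rps15a, chr2:180257367-180257396 on the plus strand for Rps21 and chr3:90213631-90213660 on the minus strand for Rps27. Those of the contrasting genes lie at chr9:66946074-66946103 on the plus strand for Rps27l and chr7:99483692-99483721 on the minus strand for Rps3.
Fau: gcgcccccacttCTTCCTCTTTCTTgactc
Rps6: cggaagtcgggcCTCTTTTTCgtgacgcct
Rps10: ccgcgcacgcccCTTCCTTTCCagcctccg
Rps18: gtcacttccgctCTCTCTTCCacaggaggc
Rps15a: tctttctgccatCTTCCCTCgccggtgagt
Rps21: cgaggacccgccCTCCTgcccaatagtgct
Rps27: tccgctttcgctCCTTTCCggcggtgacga
Rps27l: ctcctccccgccgcctctatcccggaagtt
Rps3: gcaagggtcgccgcgctgcgcggcgtcatt

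The mRNA libraries held 22492813 and 18011999 reads in HB and 11437462 and 11570775 in HF, and the ribosome-bound libraries held 6508500 and 8659310 in HB and 5778439 and 6431510 in HF. The HB ribosome-bound libraries agreed far more closely than any other pair, with a chi-square per degree of freedom of 1.40 over genes, against 97.95 in the HF ribosome-bound, 98.5 in the HB mRNA and 34.7 in the HF mRNA pair. The labels list them as 2 samples, but agreement this close leaves it uncertain that they are separate libraries. Their counts were therefore summed and counted as 1 sample, apart from alternatives said to keep them apart. Hepatocyte markers summed to 129584 and 122869 CPM (read counts scaled to library size) in HB mRNA and to 85567 and 89438 in HF mRNA. All 10 hepatocyte markers on the list were found, but they did not move together. Alb, the largest, had 77730 and 61849 CPM in HB and 43734.5 and 51782 in HF. In contrast, Hnf4a had 602 and 724 in HB and 952 and 686 in HF, and Tat 2261 and 2868 in HB and 3824 and 2169 in HF.

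In ribosome-bound RNA the small-subunit genes were nearly missing, although their mRNAs were abundant. They took 0.0247% and 0.0248% of ribosome-bound reads in the HB libraries, against 0.702% and 1.00% of HB mRNA reads. In HF they took 0.0317% and 0.0371% of ribosome-bound reads, against 0.782% and 0.860% of mRNA reads. The widest exact binomial 95% interval among the ribosome-bound shares was 0.0356% to 0.0386%, which covers counting error only. In reads, all 33 genes together had 1607 and 2149 in the HB and 1831 and 2386 in the HF ribosome-bound libraries, while the mRNA libraries held 157971 and 180247 in HB and 89415 and 99540 in HF.

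**Figure D1:**
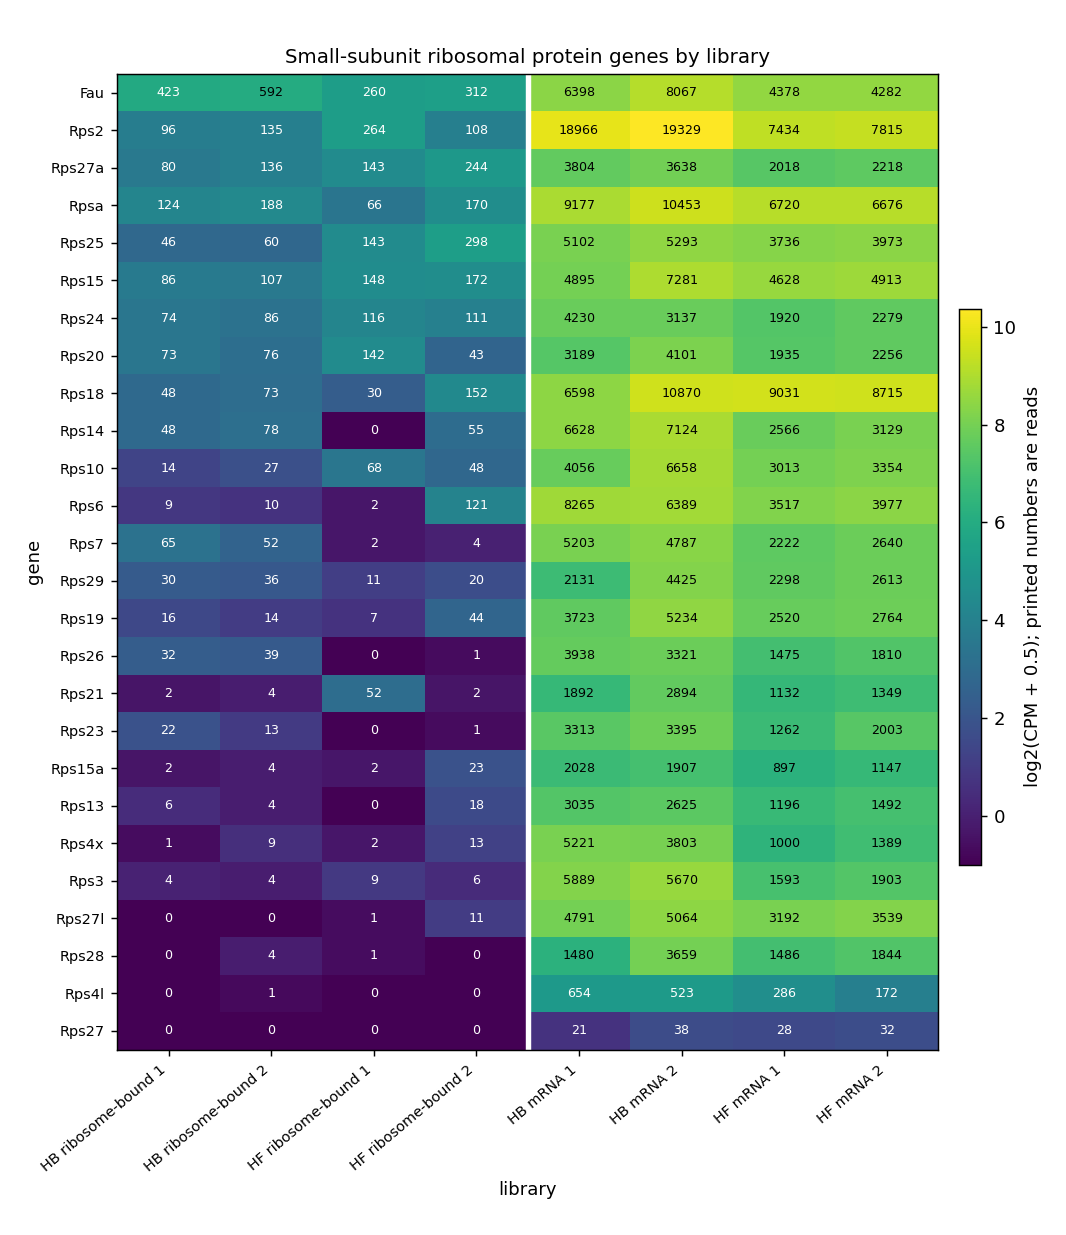
Reads of 26 of the 33 small-subunit genes (rows, by total ribosome-bound reads) in each library (columns); the colour is log2(CPM + 0.5) and the printed number the read count. The ribosome-bound columns run from 0 to 592 reads, against 21 to 19329 reads in the mRNA columns.

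Set against all genes, 31 of 33 members were lower in ribosome-bound than in total mRNA in HB by edgeR's quasi-likelihood test, where 22% of genes tested were called lower, and 31 of 33 in HF, where 24.7% were. None was higher in either diet, where 6.36% of genes were in HB and 3.92% in HF, and 30 were called lower in both. The median log2 ratio of ribosome-bound over total mRNA was -6.20 in HB, against -0.71 for all genes, and -5.89 in HF, against -0.56 for all genes. With genes at 0 reads set to their bound the members' medians were -5.76 in HB and -5.63 in HF. All 33 members had both ribosome-bound CPM values below both mRNA values in HB, a pattern found in 56.8% of all genes, and all 33 did in HF, where 47.8% of genes did. Every one of these calls in HB was lost when any single mRNA library was left out, since no gene at all then passed the adjusted threshold, and those in HF when either HF mRNA library was left out.

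The depth of this deficit depends on which genes it is compared with, since many weakly transcribed genes have no ribosome-bound read. Among all genes tested, 25% had a log2 ratio under -6.35 in HB and under -2.64 in HF, and 16 of 33 members lay below that value in HB and 33 of 33 in HF. Among 1572 other genes with a mean of at least 100 CPM in mRNA, a level that 31 members reached, 5% had a log2 ratio under -3.89 in HB and under -2.86 in HF. Below those values were 30 of the 31 members in each diet. The member above it was Fau in HB and Rps27a in HF.

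Short mRNAs as such did not share the deficit to the same extent. Of the members, 28 have an annotated length of at most 1000 bases, and their median log2 ratio was -5.98 in HB and -5.98 in HF. The 975 other genes of at most 1000 bases had medians of -0.83 in HB and -0.35 in HF. Across members, length and log2 ratio had a Spearman correlation of 0.12 in HB and 0.23 in HF (n = 33 genes that share their libraries).

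Fau and Rps27a are the only small-subunit genes that encode a fusion protein. Fau encodes a ubiquitin-like protein joined to eS30, and Rps27a encodes ubiquitin joined to eS31. Their fitted log2 ratios were the highest of the members in both diets. In single HF libraries the order differed. The ribosome-bound level in HF replicate 1 was 13.2% of the mRNA level in Rps20 and 10.9% in Rps24. It was 12.8% in Rps27a and 10.7% in Fau there. In HF replicate 2 Rps25, at 11.97%, lay between Rps27a at 17.6% and Fau at 11.6%. Fau had 423 and 592 reads in the HB and 260 and 312 in the HF ribosome-bound libraries, against 6398 and 8067 reads in HB and 4378 and 4282 in HF mRNA. Its ribosome-bound level was 14.0% of its mRNA level in HB and 10.7% and 11.6% in the HF replicates, and its log2 ratio was -2.84 (SE 0.41, adjusted p = 0.0181) in HB and -3.16 (SE 0.31, adjusted p = 0.0103) in HF. Fau had the most reads of any member in the ribosome-bound libraries apart from HF replicate 1, where Rps2 had 264 reads.

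Rps27a had 80 and 136 reads in the HB and 143 and 244 in the HF ribosome-bound libraries, against 3804 and 3638 reads in HB and 2018 and 2218 in HF mRNA. Its ribosome-bound level was 5.90% of its mRNA level in HB and 12.8% and 17.6% in the HF replicates. The log2 ratio was -4.08 (SE 0.44) in HB and -2.71 (SE 0.31) in HF. Next in order came Rps24 in HB, at -4.48 (SE 0.34), and Rps25 in HF, at -3.39 (SE 0.39). The ratio of Rps24 in HF was -3.44 (SE 0.24) and that of Rps25 in HB was -5.60 (SE 0.60). By these approximate SEs, Fau stood above the next gene by more than the SE in HB. In contrast, Fau, Rps25 and Rps24 in HF lay close together, by about an SE or less. The order of the genes was not tested.

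**Figure D2:**
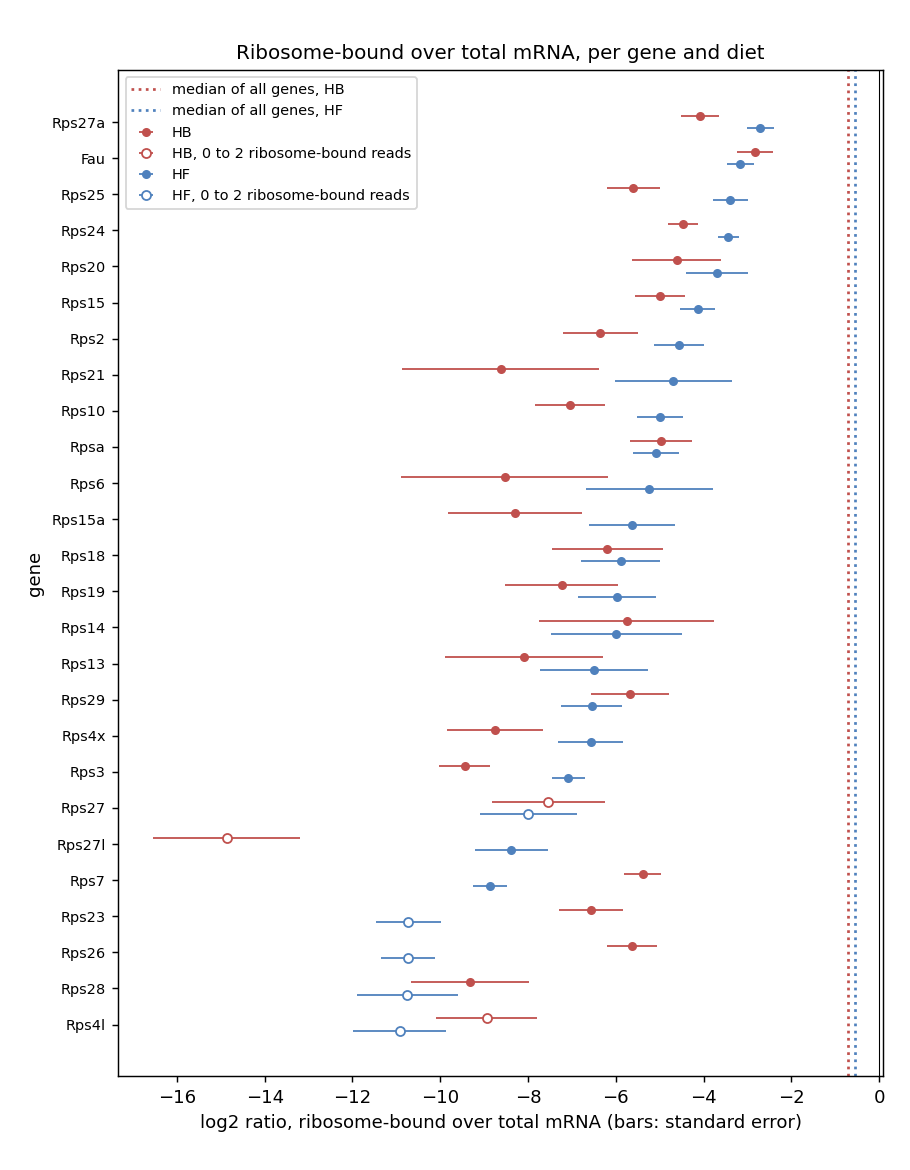
log2 ratio of ribosome-bound over total mRNA for 26 of the 33 genes (rows) in HB (red) and HF (blue). Bars are approximate SEs derived from the F statistics of the 7-library fit, and dotted lines the median of all genes. Open points have 0 to 2 ribosome-bound reads and their position depends on the prior count; all points lie left of both medians, and Fau and Rps27a lie nearest to them.

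At the low end the order differed between the diets. Rps27l and Rps3 were among the lowest in HB. Rps3, which lines the mRNA entry site and also takes part in DNA repair, had 4 and 4 ribosome-bound reads in HB and 9 and 6 in HF, against 5889 and 5670 mRNA reads in HB and 1593 and 1903 in HF. Its log2 ratio was -9.45 (SE 0.58, adjusted p = 0.0149) in HB and -7.08 (SE 0.38, adjusted p = 0.0103) in HF, so it was low in every ribosome-bound library.

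In HF, Rps28, Rps26 and Rps23 were among the lowest and cannot be ranked, with 1 ribosome-bound read each over both libraries. Rps28, a small protein near the mRNA exit site, had 0 and 4 ribosome-bound reads in HB and 1 and 0 in HF, against 1480 and 3659 mRNA reads in HB and 1486 and 1844 in HF. Its ribosome-bound level in HF was 1966-fold lower than its mRNA level, with a counting interval from 353-fold to 77674-fold. Rps26, which also lies at the mRNA exit site, had 0 and 1 ribosome-bound reads in HF but 32 and 39 in HB, against 3938 and 3321 mRNA reads in HB and 1475 and 1810 in HF. Its position at the low end thus applied to HF libraries, in which it was 1939-fold lower (348-fold to 76625-fold), and in HB its log2 ratio was -5.64 (SE 0.57).

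Other members with well-known roles lay between these ends. Rps2, at the mRNA entry site, had 96 and 135 ribosome-bound reads in HB and 264 and 108 in HF, and log2 ratios of -6.36 (SE 0.86) in HB and -4.56 (SE 0.57) in HF. Rpsa, also known as a laminin receptor, had 124 and 188 reads in HB and 66 and 170 in HF, and log2 ratios of -4.97 (SE 0.71) in HB and -5.10 (SE 0.52) in HF. Rps19, the gene most often mutated in human Diamond-Blackfan anaemia, had 16 and 14 reads in HB and 7 and 44 in HF, and log2 ratios of -7.23 (SE 1.29) in HB and -5.97 (SE 0.89) in HF.

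Rps6, the substrate of S6 kinase, and Rps14, a platform protein, were the 2 members not called in HB. Rps6 had 9 and 10 ribosome-bound reads in HB and 2 and 121 in HF, against 8265 and 6389 mRNA reads in HB and 3517 and 3977 in HF. Its log2 ratio was -8.54 (SE 2.36, adjusted p = 0.0534) in HB and -5.23 (SE 1.45, adjusted p = 0.0539) in HF. Rps14 had 48 and 78 ribosome-bound reads in HB and 0 and 55 in HF, against 6628 and 7124 mRNA reads in HB and 2566 and 3129 in HF. Its log2 ratio was -5.76 (SE 1.98, adjusted p = 0.0966) in HB and -5.99 (SE 1.49, adjusted p = 0.0385) in HF. In HF the members not called were Rps6 and Rps21, which had 52 and 2 ribosome-bound reads there and a log2 ratio of -4.69 (SE 1.33, adjusted p = 0.0576). In each of these genes the 2 HF ribosome-bound libraries lay far apart.

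That disagreement ran through the group. Between the HF ribosome-bound libraries the median absolute log2 difference of the members was 0.88, and 9 of 33 differed by more than 4-fold, whereas in the HB pair the median was 0.18 and 0 of 33 did. Since the HB pair may not be separate libraries, its agreement is no measure of replicate spread. In HF, 8 members had 0 reads in at least 1 ribosome-bound library (among them Rps13, Rps14, Rps23, Rps26, Rps27, Rps28 and Rps4l), and in HB 4 did (Rps27, Rps27l, Rps28 and Rps4l). The median ratio of ribosome-bound over mRNA level was 0.903% in HF replicate 1 and 2.21% in HF replicate 2, against 1.36% in HB.

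**Figure D3:**
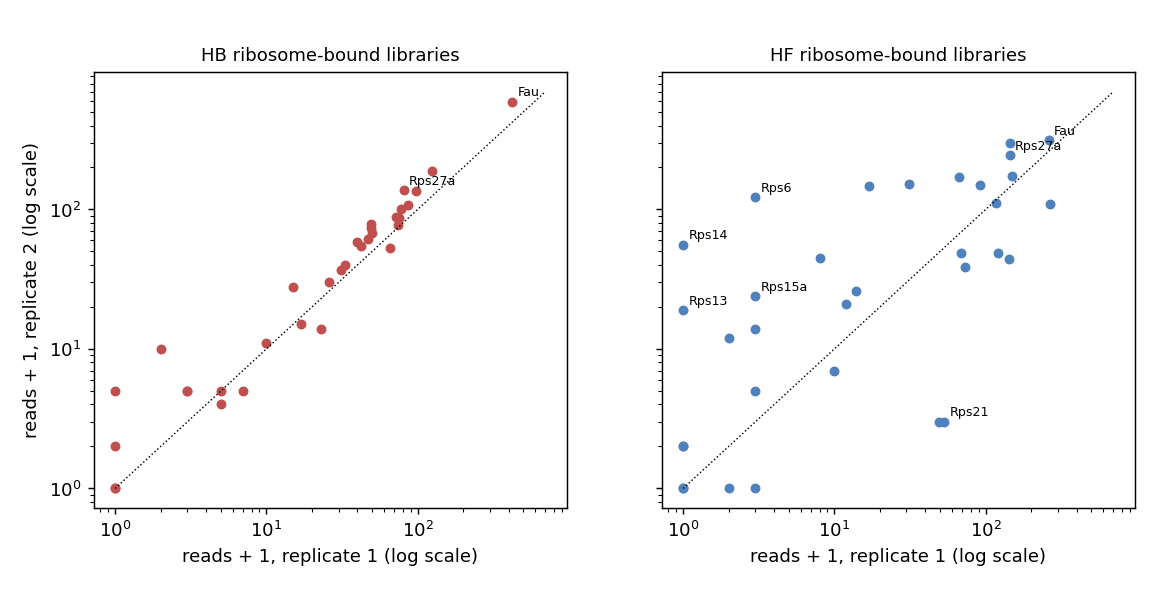
Reads + 1 (log scales) of the 33 genes in replicate 2 against replicate 1 of the HB (left) and HF (right) ribosome-bound libraries, with equality dotted. HB points, from a pair that may not be separate libraries, follow the line, whereas in HF Rps6 (2 and 121 reads), Rps14 (0 and 55) and Rps21 (52 and 2) lie far from it.

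Paralogues were set beside their main genes next, namely Rps27l beside Rps27 and Rps4l beside Rps4x. Rps27l, a paralogue known in human and mouse cells as a target of p53, was the more abundant gene of its pair as counted. It had 4791 and 5064 mRNA reads in HB and 3192 and 3539 in HF, and a mean mRNA level of 445 RPKM (reads per kilobase of transcript, scaled to library size). In ribosome-bound RNA it had 0 and 0 reads in HB and 1 and 11 in HF. With a floor of 3 reads over the group, its ribosome-bound level was at least 1593-fold lower than its mRNA level in HB. In HF its log2 ratio was -8.38 (SE 0.83, adjusted p = 0.0103).

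Rps27, which encodes the core protein eS27, had 21 and 38 mRNA reads in HB and 28 and 32 in HF, a mean of 3.54 RPKM, and 0 reads in all 4 ribosome-bound libraries. Its ribosome-bound level was at least 9.54-fold lower in HB and at least 11.8-fold lower in HF, both against a floor of 3 reads over the group. So few reads on a core gene led to Rps27rt, a closely similar gene on chromosome 9 outside the symbol rule, which was looked up after these values were seen. Rps27rt had 3192 and 3495 mRNA reads in HB and 2094 and 2427 in HF, and 4 and 4 ribosome-bound reads in HB and 2 and 19 in HF. The first 30 transcribed bases of each, at chr3:90213619-90213648 for Rps27 and chr9:114982710-114982739 for Rps27rt, both on the minus strand, are shown because they share 1 unbroken run, in capitals.
Rps27: cCTTTCCGGCGGTGACGACCTCCCTACGAG
Rps27rt: CTTTCCGGCGGTGACGACCTCCCTACGAGA
The shared run went on for 38 of the 50 bases after the start that were compared, while the longest shared run in the 250 bases before the starts was 10 bases. How the authors' counting split reads between such copies is not given in the sources used here, so the level of Rps27 is uncertain.

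Rps4l, listed by RefSeq as a transcribed pseudogene on chromosome 6, had 654 and 523 mRNA reads in HB and 286 and 172 in HF, a mean of 25.8 RPKM. It had 0 and 1 ribosome-bound reads in HB and 0 and 0 in HF. Its ribosome-bound level was 571-fold lower in HB (counting interval 102-fold to 22559-fold) and at least 90.1-fold lower in HF. Rps4x, the X-linked core gene, had 5221 and 3803 mRNA reads in HB and 1000 and 1389 in HF, a mean of 166 RPKM, and 1 and 9 ribosome-bound reads in HB and 2 and 13 in HF. Its log2 ratio was -8.75 (SE 1.09, adjusted p = 0.0181) in HB and -6.57 (SE 0.74, adjusted p = 0.0103) in HF. The intervals of Rps4l are too wide to place it above or below Rps4x.

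Per length, the mRNA levels of the members were far from equal as deposited. Rps18 was highest with a mean of 1148 RPKM over the 4 mRNA libraries, followed by Rps2 at 803. The lowest were Rps27 at 3.54, Rps15a at 17.99 and Rps4l at 25.8. RPKM divides by the longest annotated transcript, which is 5134 bases for Rps15a and 3446 for Rps20, against a median of 629 bases for the members, so their RPKM is understated where a shorter transcript is made.

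By place in the subunit, all 14 head genes were called lower in ribosome-bound RNA in each diet, where 22% of all genes were in HB and 24.7% in HF, with median log2 ratios of -5.72 in HB and -5.45 in HF. Of 17 body and platform genes, 15 were called in each diet, with medians of -6.36 in HB and -5.63 in HF. Rps6 was not called in either diet, and the difference between the groups was not tested.

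Related gene lists place the small subunit among other translation genes. Of all genes tested, 22% were called lower and 6.36% higher in HB, and 24.7% lower and 3.92% higher in HF. Of 51 large-subunit genes tested, 41 were lower in ribosome-bound RNA in HB and 47 in HF, with none higher and medians of -5.45 in HB and -4.98 in HF. Rplp0, the acidic stalk base, had log2 ratios of -9.48 (SE 0.57) in HB and -6.62 (SE 0.37) in HF. Of 31 mitochondrial small-subunit genes, 19 were lower and 1 higher in HB, and 20 were lower and 1 higher in HF, with medians of -8.55 in HB and -7.00 in HF that include genes with no ribosome-bound read, placed by the prior count. Their mRNA levels are lower, and they took 0.0354% and 0.0358% of the HB ribosome-bound reads and 0.104% and 0.117% of the HB mRNA reads.

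The genes that assemble and use the 40S subunit lay higher by their medians, though single genes among them were called lower. Of 45 assembly factors of the 40S subunit, 8 were higher and 4 lower in HB, and 8 were higher and 3 lower in HF, with medians of 0.58 in HB and 0.42 in HF. Imp3 and Rrp7a, of the early pre-ribosome, were called lower in both diets, and Fbl, the methyltransferase of box C/D particles, in HB. Nop56, a core protein of box C/D particles, was higher by 4.10 (SE 0.29) in HB and by 2.37 (SE 0.25) in HF. Of 31 initiation factors, 4 were higher and 1 lower in HB, and 5 were higher and 3 lower in HF, Eif2s1 among the lower ones, with medians of -0.42 in HB and -0.08 in HF. TOP mRNAs that do not encode ribosomal proteins had medians of -0.51 in HB and -0.00 in HF. The elongation factors among them differed. Eef2 (-2.32) and Eef1a1 (-2.06) were called lower in HB, and Eef1a1 (-1.06) also in HF. Eef1b2, Eef1d and Eef1g had positive log2 ratios in both diets. Of the 18 TOP mRNAs on this list, 4 were lower and 2 higher in HB, where 22% of all genes were lower. In HF 1 was lower and 0 higher, where 24.7% of all genes were lower. Of 22 regulators such as the mTOR and LARP families, 7 were lower and 1 higher in each diet, and their medians of -1.79 in HB and -0.74 in HF lay below those of all genes. Their HB values ran down to -11.4, with 25% under -9.12, and the prior count places any gene with no ribosome-bound read.

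**Figure D4:**
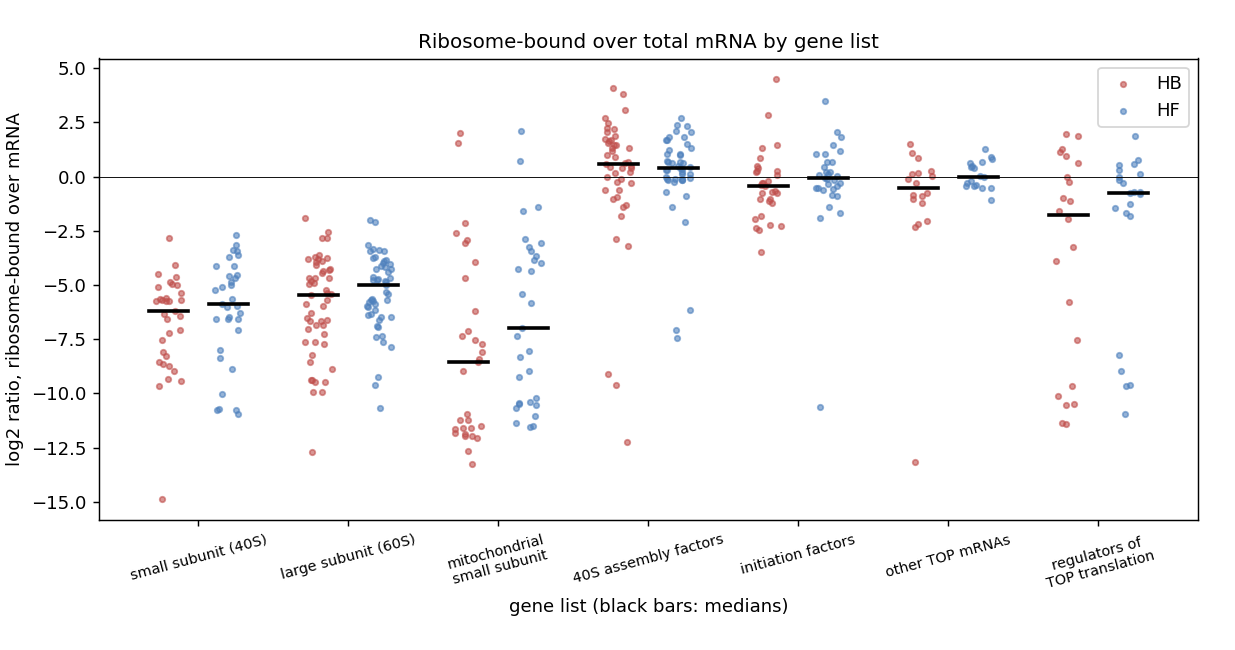
log2 ratio of ribosome-bound over total mRNA for each tested gene (points) of 7 gene lists, in HB (red, left of each pair) and HF (blue, right), with medians as black bars. Small- and large-subunit medians lie between -6.20 and -4.98, other TOP mRNAs between -0.51 and -0.00, and genes with no ribosome-bound read lie at positions that depend on the prior count.

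The question of a Betaine effect on mRNA was addressed with the 4 mRNA libraries. Rps4x and Rps3 were higher in HB, 2 of 33 members (6.06%), where 11.3% of all genes were called higher, and 0 members were lower, where 10.1% of genes were. Rps4x had 274 and 261 CPM in HB and 84.8 and 119 CPM in HF, a log2 change of 1.38 (SE 0.30, adjusted p = 0.0118). Rps3 had 309 and 389 CPM in HB and 135 and 163 CPM in HF, a log2 change of 1.22 (SE 0.30, adjusted p = 0.0178). In both genes the HB values lay above both HF values. Rps3 lost its call without either HF mRNA library (adjusted p = 0.195 without replicate 1 and 0.0818 without replicate 2), and Rps4x without HF replicate 1 (0.163). Neither passed when all libraries entered 1 fit, in which 0 of 12634 genes passed.

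Most other members leaned the same way without passing. The median log2 change was 0.32, against 0.01 for all genes, and 28 of 33 changes were positive. The HB values lay above both HF values in 16 of 33 members, where 33.3% of all genes did, and below both in 0, where 31.7% of genes did. Rps2 had 994 and 1327 CPM in HB and 630 and 667 in HF, a log2 change of 0.83 (SE 0.30, adjusted p = 0.0686). Rps14 had a change of 0.78 (SE 0.31, adjusted p = 0.0912) and Rps6 of 0.44 (SE 0.28, adjusted p = 0.283).

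The lowest changes were those of Rps27, Rps18 and Rps15. Rps18, a head protein that contacts the large subunit, had 346 and 746 CPM in HB and 765 and 744 CPM in HF, a log2 change of -0.48 (SE 0.37, adjusted p = 0.370). It was called lower without HB mRNA replicate 2 (-1.15, adjusted p = 0.0295) and with a trend on length removed (-0.98, adjusted p = 0.0398), and it was at -0.02 without HB mRNA replicate 1. The HB libraries of Rps18 thus lay on both sides of 1 HF value. Rps15, also of the head, had 257 and 500 CPM in HB and 392 and 420 in HF, at -0.11 (SE 0.35), and Rps25 was at -0.07 (SE 0.30). Rps27 was at -0.49 (SE 0.54) from the few reads given above, and at 0.065 when its reads were added to those of Rps27rt, an alternative chosen after seeing the data. Rpsa (0.06, SE 0.31), Rps19 (0.29, SE 0.34), Fau (0.26, SE 0.32), Rps27a (0.31, SE 0.29) and Rps27l (0.05, SE 0.30) did not pass either.

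The HB mRNA replicates differed in these genes, and the group's median moved with them. Of 33 members, 31 had a lower CPM in HB replicate 1 than in replicate 2, with a median ratio of 0.711 and a range from 0.309 to 1.05. The 3 members of at most 400 bases had a median ratio of 0.368 and the 9 over 900 bases of 0.812. Without HB replicate 2 the median log2 change was 0.05, with 17 of 33 positive, and without HB replicate 1 it was 0.66, with 32 positive. With total counts in place of TMM scaling it was 0.02, where the median of all genes moved to -0.28, and with a trend on length removed it was -0.00, with 16 positive. Red cell markers summed to 602 and 1752 CPM in HB and 412 and 350 CPM in HF, so HB replicate 2 was the higher for them too. Stellate cell markers summed to 228 and 158 CPM in HB and 112 and 107 in HF, Kupffer cell markers to 290 and 265 in HB and 211 and 219 in HF, and lymphocyte markers to 12.4 and 12.97 in HB and 22.9 and 29.97 in HF. Single genes carried much of these sums, and others on the lists differed. Kupffer marker Cd5l had 99.7 and 82.5 CPM in HB and 22.8 and 38.7 in HF, but Clec4f had 139 and 148 in HB and 172 and 156 in HF. Stellate marker Dcn had 129 and 71.6 in HB and 40.9 and 42.7 in HF, but Reln had 36.7 and 24.6 in HB and 27.1 and 24.1 in HF. Ptprc made up most of the lymphocyte sum, with 9.49 and 10.3 in HB and 20.3 and 23.9 in HF. The part of these cell types in the result was not tested.

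**Figure D5:**
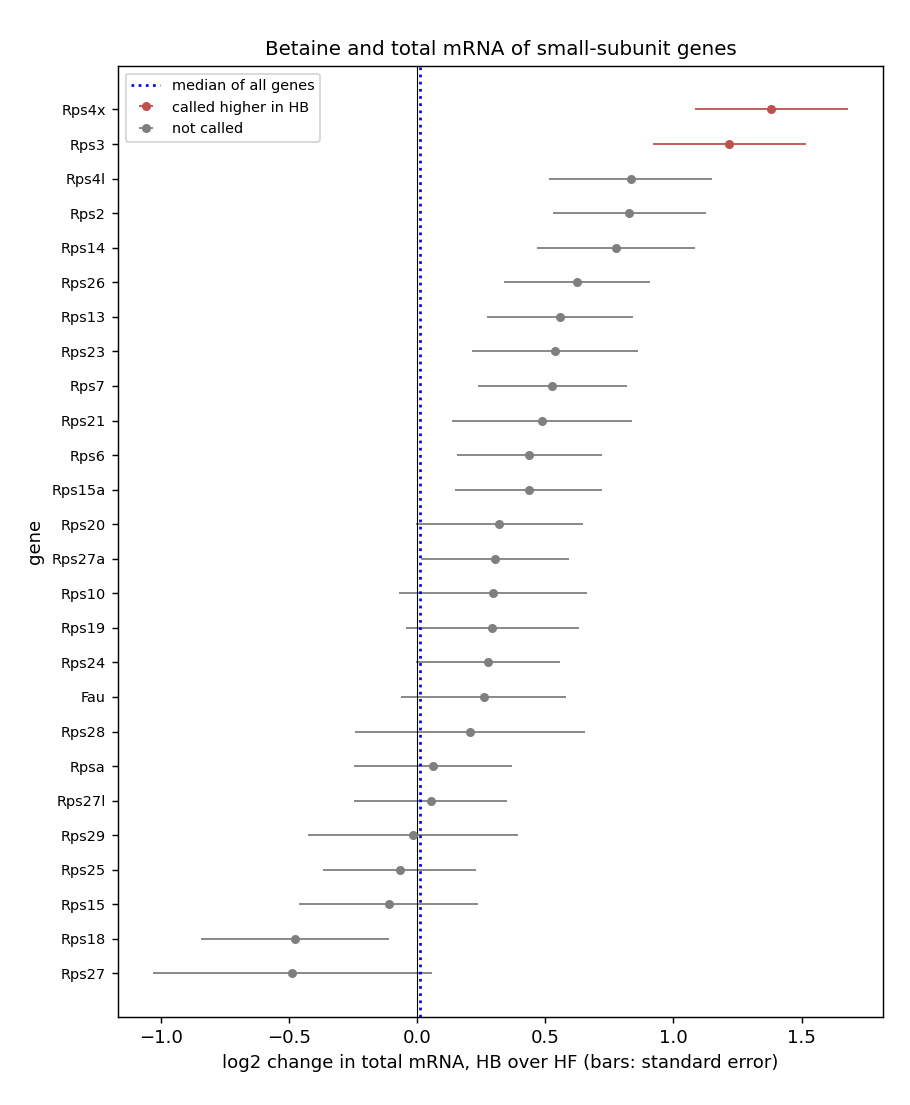
log2 change in total mRNA, HB over HF, of 26 of the 33 genes (rows). Bars are approximate SEs derived from the F statistics of the fit of the 4 mRNA libraries. Red genes passed the adjusted threshold and the dotted line is the median of all genes. Rps4x (1.38) and Rps3 (1.22) lie farthest right, and Rps18 (-0.48) and Rps27 (-0.49) farthest left.

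In ribosome-bound RNA, 4 of 33 members (12.1%) were higher in HB than in HF, where 7.61% of all genes were called higher, and 0 were lower, where 3.94% were. With DESeq2 4 members were called higher and 4 lower, where 2874 of 12634 genes were called either way, against 1459 in the main fit. Some members were also lower without HF ribosome-bound replicate 1 or 2, in fits with no replicated ribosome-bound group. In the main fit the members called higher included Rps26, Rps23 and Rps7. Rps26 had 32 and 39 reads in HB against 0 and 1 in HF, a 60.4-fold difference with a counting interval from 10.5 to 2419 (adjusted p = 0.0201). Rps23, which sits at the decoding centre, had 22 and 13 reads in HB against 0 and 1 in HF, a 29.8-fold difference (5.01 to 1209, adjusted p = 0.0299). Rps7, known also to bind Mdm2, had 65 and 52 reads in HB against 2 and 4 in HF, a 16.6-fold difference (7.40 to 46.1, adjusted p = 0.0201).

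In the 4 genes called every HB ribosome-bound library had at least 13 reads and every HF library at most 4. The other 29 members did not pass, and the median log2 change of all 33 was -0.77, with 20 negative. The calls of Rps26, Rps23 and Rps7 were lost when any mRNA library was left out, where 0 of 12634 genes passed. Those of Rps26 (5.74 on the log2 scale) and Rps7 (4.03) were lost with the ribosome-bound libraries fitted alone, where 0 of 9647 genes passed and Rps23 did not reach the filter. With HB ribosome-bound replicate 1 left out, Rps23 did not pass (adjusted p = 0.0633). Without HF ribosome-bound replicate 2 the median turned to 0.65.

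The change of the ratio itself, ribosome-bound over total mRNA in HB against HF, passed for Rps26 and Rps7 (6.49% of all genes were called higher) and was negative for 21 of 33 members, with 0 called lower (4.02% of all genes). Rps26 had a change of 5.10 on the log2 scale (SE 0.80, adjusted p = 0.0319) and Rps7 of 3.49 (SE 0.47, adjusted p = 0.0319). The ribosome-bound level of Rps7 was 2.39% of its mRNA level in HB and 0.162% and 0.242% in the HF replicates, and that of Rps26 was 2.00% in HB and 0% and 0.0882% in HF. Rps23 (4.17, SE 1.01, adjusted p = 0.0759) had a change of like size and did not pass. Without any single mRNA library neither Rps26 nor Rps7 passed, as no gene did.

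Among the negative changes was that of Rps21 (-3.93, SE 2.17, adjusted p = 0.380). It did not pass, and Rps21 had 52 reads in HF replicate 1 and 2 in HF replicate 2. Rps27l, with 0 ribosome-bound reads in HB, did not pass either (adjusted p = 0.191), and the size of its fitted change depends on the prior count. Rps3 was at -2.36 (SE 0.56, adjusted p = 0.0727). Fau (0.33, SE 0.45), Rpsa (0.13, SE 0.70), Rps14 (0.23, SE 1.92), Rps2 (-1.80, SE 0.81), Rps19 (-1.26, SE 1.21), Rps6 (-3.30, SE 2.18) and Rps27a (-1.37, SE 0.47) did not pass. The median of all members was -0.92, against 0.00 for all genes, and it was 0.38 without HF ribosome-bound replicate 2.

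m6A peaks, which the authors called in each library separately, overlapped the gene spans of 7 of 33 members (21.2%) in at least 1 library, against 83.7% of the 9337 genes whose mRNA averaged 5 CPM or more. Rps27, 1 of the 7, was itself under that level, at 1.10 to 2.73 CPM. Among 700 other genes of at most 1000 bases in length that reached it, 54.3% had a peak, against 7 of 28 members of that length. The spans of members are shorter, with a median of 2693 bases against 4978 for those short genes and 22560 for all, and the part of span length in the difference was not tested. By library, 2 and 3 members had a peak in HB and 5 and 6 in HF. The libraries held 22086 and 25718 peaks in all in HB and 22060 and 24141 in HF. The share of all genes with a peak in each library, or in the HF libraries only, is not given here. The member counts are thus no measure of a diet effect.

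Rps19 and Rps18 had peaks in all 4 libraries. In Rps19 the peak at chr7:24889548-24889799 (bounds in HF replicate 2, mm10) had the authors' fold enrichment of 14.9 and 18.2 in HB and 29.5 and 48.1 in HF. In Rps18 the peak at chr17:33952051-33952479 (bounds in HF replicate 2) had 8.37 and 7.09 in HB and 8.15 and 9.12 in HF. Peaks found in both HF and neither HB libraries lay in Rps25, at chr9:44407734-44408260, with fold enrichments of 11.1 and 14.2 in the HF replicates, and in Rps27, at chr3:90212700-90213136 (both bounds in HF replicate 1), with 7.64 and 6.89. Rps24 (7.70) and Rps7 (8.23) had a peak in HF replicate 2 alone. Every listed peak had an enrichment of at least 6.00-fold, so weaker ones cannot be seen in these lists, and differences between diets were not tested.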

How the data were processed

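Total mRNA, ribosome-bound mRNA and m6A were measured in mouse liver, with 2 libraries per diet and kind. The deposited read count is reads per gene with no normalization, and RPKM, also deposited, divides it by the longest transcript and scales it to library size, per the file headers. Per the series' design text, reads were mapped to RefSeq RNA. The deposited m6A peak lists give, per the file headers, a pileup signal and a fold enrichment (ratio) per peak and library. The submitters' processing notes name, for the mm10 build and with no step given, MACS2 2.1.0.20151222 and HOMER 4.8, which are tools for peaks and annotation, the aligner HISAT2 2.0.4, the counter HTSeq 0.6.0, the trimmer cutadapt 1.9.3, and edgeR. The m6A inputs were not used here. Pools may hide the spread between mice, and short mRNAs give few fragments, so length can move counts.

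Counts were analysed with edgeR 4.0.16 in R 4.3.3 (TMM, filterByExpr, quasi-likelihood F test). Adjusted p-values are Benjamini-Hochberg over all genes tested, with a threshold of 0.05, and are given throughout. The test itself returns no SE. Each SE was derived as the size of the log2 value over the square root of its F statistic. It is approximate and breaks down at very low counts. For Rps27, with 0 ribosome-bound reads, it was 449 in the change of the ratio. Diet in mRNA used the 4 mRNA libraries (12817 genes, 2 residual degrees of freedom, common dispersion 0.0644). Other contrasts used 7 libraries (12634 genes, 3 residual degrees of freedom, common dispersion 0.464), with the HB ribosome-bound pair summed, so that this group is 1 value assumed to vary like the others. CPM are after TMM scaling. With 0 ribosome-bound reads in a group, a fold is a bound at 3 reads over the group, and with 1 to 3 reads it carries an exact 95% counting interval. Intervals cover counting error only. All 33 members passed the filter on low counts.

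m6A peaks were overlapped with RefSeq gene spans (GRCm38.p6, the assembly that mm10 names), introns included, instead of exons. Named genes were both members of the paralogue pairs, the 3 highest and 3 lowest in ratio, the 3 largest changes each way, members called against the majority, and Rps6, Rps27a, Fau, Rpsa, Rps3, Rps14, Rps19 and Rps2. Some members that this rule names are not reported here by name, though the counts and medians include them. The members and gene lists were chosen with earlier results of these data known. Alternatives were RLE scaling, total counts, no filter, a mean of at least 5 CPM, DESeq2 1.42.0, removal of a length trend, a replicate block, other sets of libraries and leaving out each library. The fits were tested on simulated data with 200 changed genes. In mRNA, 97% of 4-fold and 13% of 2-fold diet changes were recovered. Ratio changes of -5 on the log2 scale were recovered in 38.5% of genes in HB and 47% in HF. Diet changes of 16-fold were recovered in 69% in ribosome-bound RNA and 59.5% in the ratio. At most 0.0793% of unchanged genes were called. A member that did not pass is therefore not shown to be unchanged.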

Additional observations from a re-analysis of the deposited data

Results flagged for a closer look

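The change of the ribosome-bound over total mRNA ratio with diet, tested as an interaction by edgeR's quasi-likelihood test, differed between HB and HF for Rps26 and Rps7. Rps26 changed by 5.10 on the log2 scale, with 2.00% of its mRNA level found in ribosome-bound RNA in HB and 0% and 0.0882% in the HF replicates. Rps7 changed by 3.49, with 2.39% in HB and 0.162% and 0.242% in HF. In HF these values rest on 0 and 1 reads of Rps26 and 2 and 4 reads of Rps7.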

How the results depend on the processing

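The members' ratio of ribosome-bound over total mRNA was below 0 on the log2 scale for each member tested, in both diets and under every alternative run. The counts called lower (31 in each diet) were 28 to 33 under other scalings, filters and tools and with a length trend removed. Of 12634 genes, those called either way in the HB ratio were 3584 in the main fit, 4622 with DESeq2 and 4730 without the length trend. In the HF ratio they were 3618, 4036 and 6930. Of the 9630 genes kept by the 5 CPM filter, 1804 were called in HB and 1430 in HF. Removing the length trend moved the members' medians to -4.60 in HB and -4.14 in HF. Removing that trend also moved the median of all genes, from -0.71 to 0.65 in HB and from -0.56 to 1.52 in HF. Leaving out a library gave 0 to 33 called in HB and 0 to 33 in HF. Where 0 were called, edgeR's quasi-likelihood test gave 32 members in HB and 32 or 33 in HF at an unadjusted p under 0.05. The share of all genes under that p is not given here, so these counts do not set the members apart. The HF median ranged from -6.95 to -5.46 and the HB median from -6.55 to -5.56. For diet in mRNA, the 2 members called higher became 4 with no filter, 5 with DESeq2, 0 with all libraries in 1 fit (1 at an unadjusted p under 0.05), and 0 to 3 with a library left out. Members called lower in mRNA were 1 with a length trend removed and 2 without HB mRNA replicate 2. All genes called either way in mRNA were 3603 of 16762 with no filter and 3031 of 12817 with DESeq2, against 2740 in the main fit. They were 2546 with a length trend removed. In mRNA, Rps27 ranged from -1.23 to 0.031 and Rps15 from -0.69 to 0.30 with a library left out. Both turned without HB mRNA replicate 1, and Rps27 was 0.065 with Rps27 and Rps27rt summed. For diet in ribosome-bound mRNA, the 4 called higher became 0 with the ribosome-bound libraries alone (0 of 21 members tested at an unadjusted p under 0.05) and 0 to 6 with a library left out. Called lower there were 1 with RLE scaling or total counts, 3 with a length trend removed or the HB ribosome-bound libraries kept apart, and 4 with DESeq2. Of 12634 genes, those called either way were 1455 with RLE scaling, 1459 with total counts and 1567 with a length trend removed. They were 2419 with the HB libraries kept apart and 2874 with DESeq2. Some members were also lower without HF ribosome-bound replicate 1 or 2, in fits with no replicated ribosome-bound group. The members' median ranged from -0.79 to 0.65. For the change of the ratio, the 2 called higher became 4 with DESeq2, which also called 5 lower, as a removed length trend did 2, and 0 to 5 with a library left out. Its median ranged from -1.26 to 0.38. Of 12634 genes, those called either way in that change were 2187 with DESeq2 and 1335 with a length trend removed, against 1328 in the main fit. With HF ribosome-bound replicate 1 or 2 left out, some members were called lower in it, in fits with no replicated ribosome-bound group. The cause of these shifts was not tested.

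Libraries with the same number did not deviate together (correlations from -0.116 to 0.0952), so the numbers are not taken as pairs. With a replicate block, 2 members were called higher in mRNA. For the other comparisons a block needs the HB ribosome-bound libraries kept apart as 2 samples. Kept apart, 4 were called higher in ribosome-bound RNA and 3 in the change of the ratio (3 lower), and 33 in each diet lower in the ratio. Of 12634 genes, 2419 were then called either way in ribosome-bound RNA, 5428 in the HB ratio and 4396 in the HF ratio. With the block added the member counts were 4, 3 (3 lower), 33 in HB and 32 in HF, and 2 were lower in ribosome-bound RNA. Peaks of at least 10-fold enrichment left 2 of 7 members with an m6A peak, and leaving out a library left 5 to 7. Depth limits the ribosome-bound values, where the median member had 32 and 39 reads in HB and 13 and 38 in HF.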

Other observations

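Rps27 had at most 38 reads in any mRNA library, while the m6A peaks over its span reached the authors' pileup of 506 in HF replicate 1 and 349 in HF replicate 2. No source used here says how the pileup was scaled. Rps3a1, a core small-subunit gene that the symbol rule leaves out, was looked up after the results were seen. It was higher in HB mRNA by 1.11 on the log2 scale (SE 0.30, edgeR adjusted p = 0.0260), with 349 and 338 CPM in HB and 128 and 187 CPM in HF. Its log2 ratio of ribosome-bound over total mRNA was -6.02 (SE 0.59) in HB and -4.09 (SE 0.39) in HF, within the range of the 33 members.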
